A study of Mus musculus with 6 samples.

Results

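The genes described here encode the proteins of the cytosolic ribosome in mouse bone marrow-derived macrophages, and they were chosen by name from the authors' gene table. A symbol made of Rpl or Rps and a number, with an optional letter and further digit, or of Rplp and a number was taken, which gave 84 of 19386 listed genes, 49 named for the large subunit and 35 for the small one. Named pseudogene rows (symbols with -ps) and the Rps6k kinases were outside this rule. The label held for most of the members: 80 were annotated as protein coding in GENCODE M21, whereas Rps3a2, Rps3a3, Rps12l1 and Rps4l were annotated otherwise. They are treated here as processed pseudogenes, reverse-transcribed copies of a messenger RNA. The 76 protein-coding members that are not tissue-restricted or diverged paralogs are called core members below, 46 of the large and 30 of the small subunit.

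The study sequenced RNA from 6 cultures of marrow cells of wild-type C57BL/6 mice, 3 from animals exposed to cigarette smoke and 3 from animals in room air. Marrow cells were grown with supernatant of L929 cells, a source of macrophage growth factor, and all 6 cultures were harvested on day 11. Smoke exposure was of the animal, the dose and duration are not given in the sources used here, and no agent was added in culture to either group. The comparison asks what the exposure left in macrophages that were grown afterwards outside the animal. Expression came only as the mean normalized count of each group and as the authors' own comparison, so no spread between single libraries can be given for it, and the depth of each library is unknown. The splicing levels were given per library. The labels name no batch, and whether each culture came from its own mouse is not stated.

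Ribosomal proteins assemble with ribosomal RNA into a small subunit, which reads the messenger RNA, and a large subunit, which joins amino acids and threads the new chain through an exit tunnel. Their messenger RNAs are short, abundant in growing cells and usually begin with a run of pyrimidines at the very start, the terminal oligopyrimidine motif, through which TOR kinase signalling controls their translation. Mammalian genomes also carry many processed copies of these genes, and their introns often hold small nucleolar RNAs.

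The start of the transcript was read from RefSeq promoter sequences on GRCm38.p6, which matched 56 of the 76 core members. A pyrimidine run was searched on the gene's own strand from 30 bases before to 50 bases after the RefSeq start, as a C followed by at least 7 bases that are each C or T. It was found in 43 of the 56, or 76.8%, against 23.0% of the 27025 promoters in the table and 21.9% of the 8341 promoters of genes tested for expression. On the other strand of the same window, 8 of the 56, or 14.3%, and 25.7% of all promoters held such a run. The following windows show the run in capitals for 4 genes that were higher after smoke and for Rpl27a, which carried the longest run of those searched.
Rpl15: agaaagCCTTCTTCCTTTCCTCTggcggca
Rpl18: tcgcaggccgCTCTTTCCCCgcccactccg
Rps15: cagcccgtaCTTCCTTTTCCgagtaaccgc
Rps26: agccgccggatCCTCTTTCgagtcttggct
Rpl27a: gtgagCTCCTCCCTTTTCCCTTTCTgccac
The Rpl15 window lies at chr14:18270967-18270996 on the minus strand, that of Rpl18 at chr7:45718062-45718091 on the plus strand, and that of Rps15 at chr10:80292447-80292476 on the plus strand. The windows of Rps26 and Rpl27a lie at chr10:128626484-128626513 on the minus strand and chr7:109519186-109519215 on the plus strand. The letters CGGAAG, the core of sites bound by ETS factors, were present on either strand in 39 of the 56 promoters of 300 bases, or 69.6%, in 17.2% of all and in 34.1% of those of genes tested. The GC box GGGCGG was present on either strand in 33 of the 56, or 58.9%, more than the 35.9% of all promoters and less than the 66.2% of those of genes tested. In the authors' deposited table the median log2 fold change was 0.23 for the 43 genes with a run, 5 of them called higher, and 0.24 for the 13 without one, 3 of them called higher. Over all genes tested, 4.15% were called higher. After removal of the trend in length and GC content described below, 0 of the 76 core members were called.

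Most ribosomal protein genes had modestly higher values in macrophages from smoke-exposed mice, though most were not called one by one. In the authors' deposited table, 14 of the 83 members with an adjusted p were higher after smoke at an adjusted p under 0.05 and none was lower. The shares called over all 12082 genes tested were 4.15% higher and 3.53% lower, 7.69% in all. At an unadjusted p under 0.05, 34 members were higher and 0 lower in the authors' deposited table, against 12% and 10.8% of all genes. The log2 fold change was above 0 for 78 of the 83 members and for 49.7% of all genes in the authors' deposited table. Its median over the members was 0.26, a fold of 1.20, with quartiles of 0.12 and 0.43, and the median over all genes tested was -0.003. The members made up 1.65% of the summed normalized counts in room air and 2.04% after smoke, from the group means in the authors' deposited table. After a trend over all genes in GC content and transcript length was removed, 1 of the 14 calls was left, as described below. In bulk RNA, a change in the mix of cells and a change in RNA per cell cannot be told apart.

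The subunits had nearly equal medians. The authors' deposited table called 7 of 48 large-subunit members and 7 of 35 small-subunit members higher, against 4.15% of all genes tested. Their median log2 fold changes in the authors' deposited table were 0.26 and 0.27. Large-subunit genes made up 1.06% of the summed group means in room air and 1.31% after smoke in the authors' deposited table, and small-subunit genes 0.588% and 0.729%. Those ratios of 1.23 and 1.24 carry no test, since each group has a single mean per gene.

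**Figure D1:**
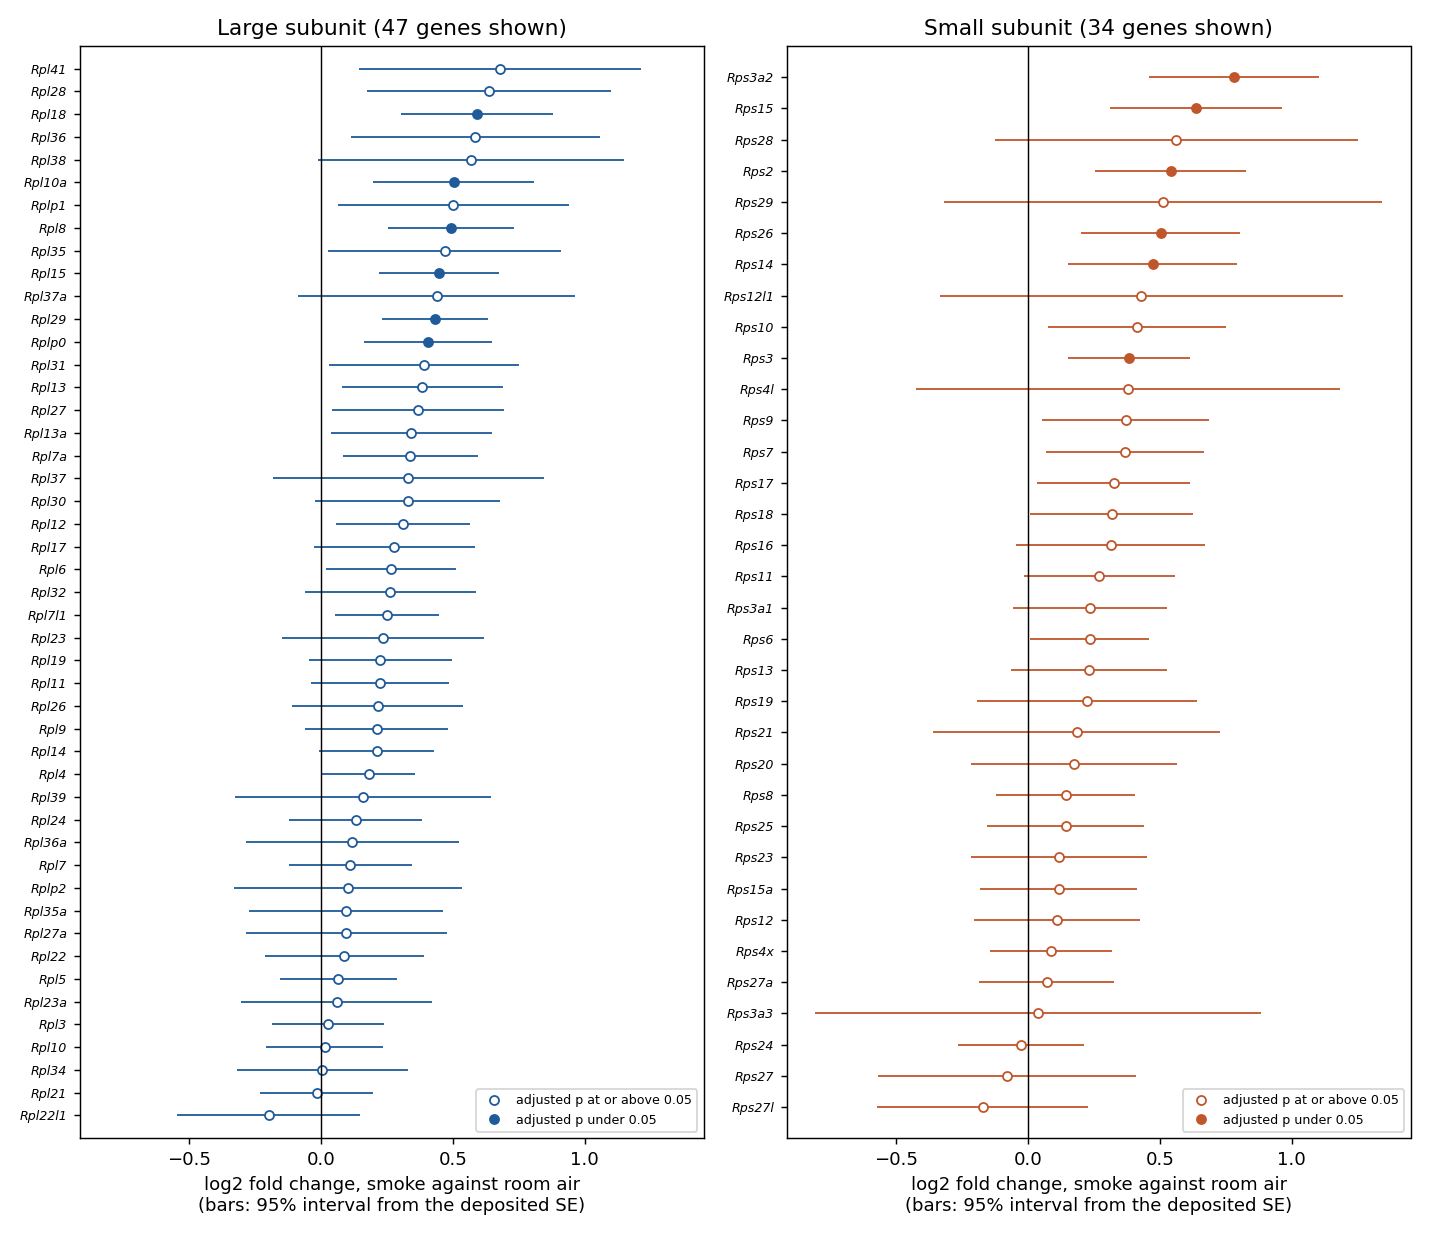
Log2 fold change of 81 of the 83 members with an adjusted p, smoke against room air, from the authors' deposited table, with large-subunit genes on the left and small-subunit genes on the right, each sorted by its value. Bars are 95% intervals from the deposited standard error and filled points mark an adjusted p under 0.05; 76 of the 81 points lie above 0, and each of the 12 filled points does.

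Among large-subunit genes, the lowest adjusted p belonged to Rpl29, a protein found in eukaryotic ribosomes only. For this gene the authors' deposited table gave 866 normalized counts for room air against 1175 for smoke (log2 fold change 0.43, SE 0.10, adjusted p = 0.00206). Rpl18, a structural protein mutated in some families with Diamond-Blackfan anaemia, had the largest fold of the called large-subunit genes in the authors' deposited table, 752 against 1133 normalized counts (log2 fold change 0.59, SE 0.15, adjusted p = 0.00336). Rpl8, which contacts the peptidyl transferase centre, had 1346 and 1892 normalized counts in the authors' deposited table (0.49, SE 0.12, adjusted p = 0.00356). Rpl15, Rplp0 and Rpl10a were also called, with log2 fold changes of 0.45, 0.41 and 0.50 in the authors' deposited table. The smallest protein of the ribosome, Rpl41, had the highest value of any large-subunit gene with an adjusted p and did not pass, with 466 and 747 normalized counts by the authors' deposited table (0.68, SE 0.27, adjusted p = 0.0998). Rpl28 was similar in size of change at 0.64, and the authors' deposited table put its adjusted p at 0.0701.

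Of the 35 small-subunit members, 7 were called higher in the authors' deposited table, against 4.15% of all genes tested. In a list of 7 genes of the decoding centre and messenger RNA channel, where codons are read, 5 were called and the median log2 fold change was 0.54 in the authors' deposited table. The list was drawn up with earlier results of these data known, so this count is a description. Rps9, also at the entry of the channel but not in the list, was at 0.37 in the authors' deposited table (adjusted p = 0.138) and was not called. Rps15, which reaches into the decoding site, had means of 738 and 1147 normalized counts in the authors' deposited table (0.64, SE 0.17, adjusted p = 0.00604). Rps2 and Rps3 line the entry of the channel, and the authors' deposited table gave them log2 fold changes of 0.54 and 0.38 (adjusted p = 0.00813 and 0.0248). Rps26, at the messenger RNA exit and the binding partner of the chaperone Tsr2, had 593 and 843 normalized counts in the authors' deposited table (0.50, adjusted p = 0.0227). By the authors' deposited table, Rps28 was at 0.56 with a wide SE of 0.35 (adjusted p = 0.346) and Rps23, at the decoding centre itself, was at 0.12 (adjusted p = 0.742). After the trend described below was removed, none of the 7 was called and the median was 0.24. Outside this list, the processed pseudogene Rps3a2 was called, and so was Rps14, at 0.47 by the authors' deposited table (adjusted p = 0.0495).

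The other functional lists of members were not tested against this one, and none held a call after removal of the trend. In the P stalk, the arm that recruits elongation factors, the base protein Rplp0 was called, with 2724 and 3612 normalized counts in the authors' deposited table (0.41, SE 0.12, adjusted p = 0.0224). By the authors' deposited table its partners Rplp1 and Rplp2 were at 0.50 (SE 0.22, adjusted p = 0.147) and 0.10 (SE 0.22, adjusted p = 0.847). Rpl5 and Rpl11 form the 5S ribonucleoprotein and can bind the p53 inhibitor Mdm2. They were at 0.07 (SE 0.11, adjusted p = 0.795) and 0.22 (SE 0.13, adjusted p = 0.318) by the authors' deposited table. Of 8 proteins of the exit tunnel and its opening, 0 were called in the authors' deposited table and the median was 0.22. Of 19 genes mutated in Diamond-Blackfan anaemia, a failure of red cell production, Rpl18, Rpl15 and Rps26 were called in the authors' deposited table and the median was 0.37. The share called higher over all genes tested was 4.15%, and these lists are short.

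Of the diverged paralogs, 4 had an adjusted p in the authors' deposited table, too few for a count of calls to be read against the 4.15% of all genes, and their median log2 fold change was 0.04. The lowest value of all members was that of Rpl22l1, a paralog of Rpl22, with 129 normalized counts in room air and 112 after smoke in the authors' deposited table (-0.20, SE 0.18, adjusted p = 0.548). Rps27l, a p53 target, was at -0.17 (SE 0.20, adjusted p = 0.679) by the authors' deposited table, and Rpl7l1, a protein of ribosome assembly, at 0.25 (SE 0.10, adjusted p = 0.104). Rps4l, the copy related to Rps4x, was at 0.38 by the authors' deposited table (SE 0.41, adjusted p = 0.640). Rpl39l, known from testis, was near absent at means of 0.625 and 1.32 normalized counts and had no adjusted p in the authors' deposited table. Below 0 were also Rps27 at -0.08, Rps24 at -0.03 and Rpl21 at -0.02 in the authors' deposited table, each within its SE of 0.

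Levels within the family spanned a wide range. Per kilobase of representative transcript and by the mean of both groups, the most abundant large-subunit genes in the authors' deposited table were Rpl10 at 3046 normalized counts per kilobase in room air and 3069 after smoke, Rpl7a at 2199 and 2780, and Rpl19 at 2188 and 2559. Rpl10 joins the large subunit last and Rpl7a sits at its surface. The small-subunit genes at the top were Rps4x at 2539 and 2694, Rps6 at 2064 and 2428, and Rps3a1 at 1882 and 2211 normalized counts per kilobase, again from the authors' deposited table. Rps6 is the classic substrate of S6 kinase downstream of TOR. None of these 6 was called in the authors' deposited table, with log2 fold changes from 0.01 for Rpl10 to 0.34 for Rpl7a. After smoke alone, the called genes Rplp0, at 2660, and Rps15, at 2295 normalized counts per kilobase, ranked above Rpl19 and Rps3a1 in the authors' deposited table.

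Within the family, transcripts richer in G and C had higher fold changes. Across the 76 core members, the deposited log2 fold change had a Spearman rho of 0.59 with GC content, 0.58 in the large and 0.61 in the small subunit. Over all 12071 tested genes with a transcript the rho was 0.48, and with transcript length it was -0.42, from the authors' deposited table. These correlations are across genes of the same libraries, which are not independent replicates. In the 26 core members of highest GC content, 53.8% to 60.8%, 10 were called in the authors' deposited table and the median log2 fold change was 0.47. In the 25 of middle GC content 1 was called with a median of 0.26, and in the 25 of lowest GC content, 41.3% to 49.5%, 2 were called with a median of 0.14 in the authors' deposited table. Those last 2 were Rps26, with a GC content of 48.6%, and Rps3, with 48.4%. The share called higher over all genes tested was 4.15%, and the share among all genes of like GC content was not computed. Members were short, with a median transcript of 774 bases against 2720 for all genes tested, and their median GC content was 51.3% against 50.1%.

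**Figure D2:**
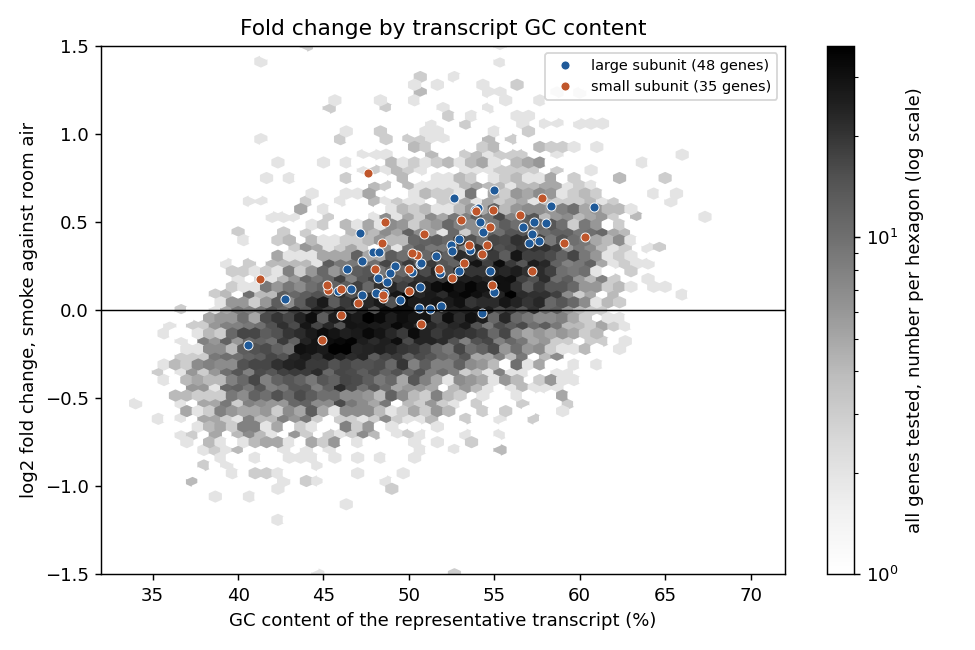
Log2 fold change, smoke against room air, from the authors' deposited table by GC content of the representative transcript, with all genes tested as grey hexagons (darker for more genes, log scale) and members as points, blue for the large and orange for the small subunit. Both clouds climb from left to right, with a Spearman rho of 0.59 over the 76 core members and 0.48 over all genes.

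A smooth trend in GC content and transcript length was therefore fitted over all genes and subtracted. On the residual scale, 1 of 83 members was called higher and 0 lower, against 0.969% higher and 0.688% lower over all genes. The median residual of the members was 0.075 and 56 of 83 residuals were above 0, against 49.1% of all genes. Large-subunit members had a median residual of 0.11 and small-subunit members one of 0.07. The member that stayed past the threshold was Rps3a2, with a residual of 0.66 and an adjusted p of 0.00940. The next was Rps3, with a residual of 0.35 and an adjusted p of 0.101, and Rpl29 had a residual of 0.07 with an adjusted p of 0.896. Subtracting a trend in length alone also left 1 call, against 1.68% of all genes called higher. A trend in the longest annotated transcript of each gene left Rpl15 and Rps3a2, against 0.82% called higher and 0.456% lower. How far the difference in the family and the trend over all genes have the same source was not tested.

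**Figure D3:**
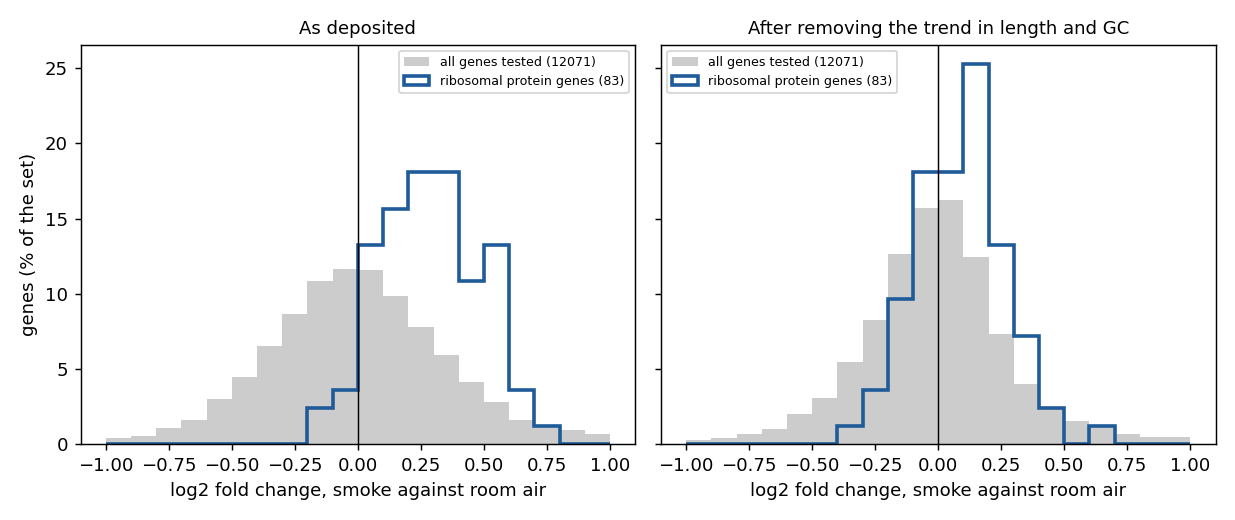
Distribution of log2 fold changes, smoke against room air, for ribosomal protein genes (blue outline, 83 genes) and all genes tested with a transcript (grey, 12071 genes), as a percent of each set, from the authors' deposited table on the left and after removal of the trend in length and GC content on the right. The outline sits to the right of 0 in the left panel, with a median of 0.26, and closer to 0 in the right panel, with a median of 0.075.

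The member with the largest fold change was a processed copy. Rps3a2 lies at chr14:88123017-88123808 on the minus strand (GRCm38, GENCODE M21) as a single exon of 792 bases, derived from Rps3a1 messenger RNA, whose gene spans chr3:86137940-86142702. Its group means by the authors' deposited table were 167 and 285 normalized counts, a fold of 1.72 (log2 fold change 0.78, SE 0.16, adjusted p = 0.000437), while Rps3a1 had 1839 and 2160 (0.23, SE 0.15, adjusted p = 0.360). Against the 977-base Rps3a1 transcript, Rps3a2 differed at 4 bases (99.5% identity), and the longest stretch without a difference was 317 bases. The 120 bases that held the most differences are shown from transcript base 529 of Rps3a2 and base 662 of Rps3a1, with the differing bases in capitals, because they show how little sequence separates the reads of the copy from those of the parent.
Rps3a2: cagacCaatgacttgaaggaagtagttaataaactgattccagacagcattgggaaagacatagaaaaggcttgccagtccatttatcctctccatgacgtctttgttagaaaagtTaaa
Rps3a1: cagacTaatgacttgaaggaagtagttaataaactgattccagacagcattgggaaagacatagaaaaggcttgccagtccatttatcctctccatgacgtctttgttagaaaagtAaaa
Only 2 of the 4 differences fall in this stretch, so counts for Rps3a2 are uncertain wherever reads could be assigned to either locus. Other near-identical copies in the family were Rps12l1, identical to Rps12 over its 399 bases, and Rps3a3. They were at 0.43 (SE 0.39, adjusted p = 0.559) and 0.04 (SE 0.43, adjusted p = 0.975) by the authors' deposited table.

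Named pseudogene rows, which are outside the rule, had higher values than their parents. The authors' deposited table lists 124 of them, of which 85 had an adjusted p, 10 were higher and 0 lower, and their median log2 fold change was 0.75. Their parents had a median of 0.23 in the authors' deposited table, and 72 of the 85 rows lay above their parent. Of the 33 rows whose mean over both groups reached 50 normalized counts, 7 were higher, with a median of 0.82 in the authors' deposited table. Some of the 33 were below 50 in room air and passed through their smoke mean, so this subset is no separate support. After removal of the trend the median over the 85 rows was 0.55 and 1, or 1.18%, was called, against 0.969% of all genes called higher. That row was Rps2-ps10, with 66.2 and 275 normalized counts in the authors' deposited table and a residual of 1.78 (adjusted p = 0.0134). Since the rows had a median identity of 98.9% to the parent transcript, the split of reads between copy and parent is uncertain for both. Among core members, the 28 without any such row had a median log2 fold change of 0.33 with 5 called, and the 48 with at least 1 row had 0.23 with 8 called, in the authors' deposited table. Those calls were 17.9% and 16.7% of each set, against 4.15% of all genes tested. After removal of the trend 0 were called in either set, at medians of 0.13 and 0.048, and with the longest transcript the order turned, at 0.063 and 0.094.

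**Figure D4:**
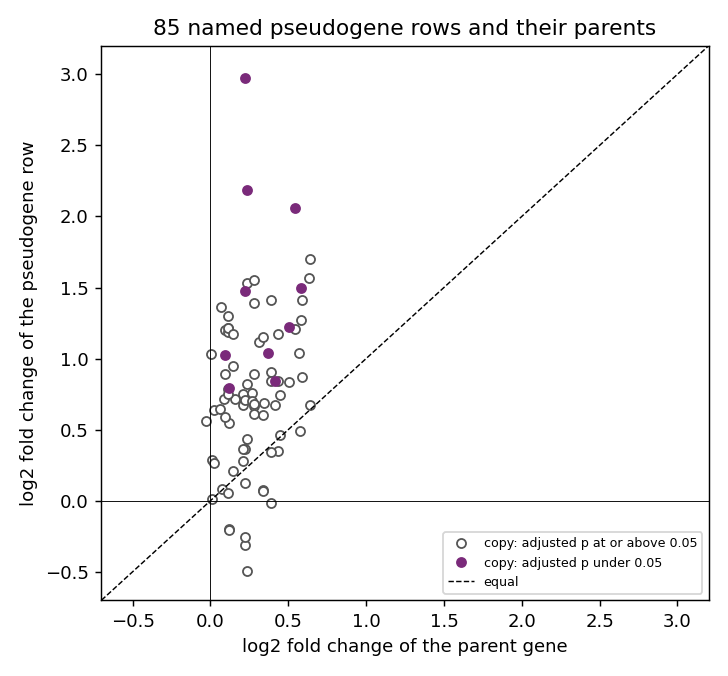
Log2 fold change, smoke against room air, of 85 named pseudogene rows (vertical axis) against that of their parent genes (horizontal axis), from the authors' deposited table, with filled points for copies at an adjusted p under 0.05 and a dashed line of equality. Of the 85 points, 72 lie above the line, and the parents stay in a narrow band around their median of 0.23.

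The spans of 29 members held 55 genes annotated as snoRNA or the related scaRNA on the same strand. SnoRNAs are small RNAs that guide the modification of ribosomal RNA and are usually released from a spliced intron. Whether each of the 55 lies in an intron was not checked. Of the 55 genes, 43 were listed in the authors' deposited table and 0 had an adjusted p, so their levels could not be compared. The authors' deposited table called 3 of the 29 hosts higher, with a median log2 fold change of 0.24, and 11 of 54 members without a snoRNA gene, with a median of 0.35. Over all genes tested, 4.15% were called higher. After removal of the trend in length and GC content the medians were 0.12 for hosts and 0.072 for the others. Of these, 0 and 1 were called, against 0.969% of all genes called higher. With the longest transcript the medians were 0.063 and 0.091, so the order of these lists is not settled.

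Related genes outside the naming rule were examined through lists of named genes. Of 6 ribosomal proteins with other names, Rpsa, a small-subunit protein also known as the laminin receptor, was called, with 2483 and 3351 normalized counts in the authors' deposited table (0.43, SE 0.11, adjusted p = 0.00485), and the median of the list was 0.43. Of 19 other genes known for messages with an oligopyrimidine start, among them translation factors but also Npm1, Nap1l1, Hnrnpa1 and Vim, the initiation factor subunit Eif3k was called higher in the authors' deposited table (0.53, adjusted p = 0.000285) and the median was 0.10. Of 18 genes of TOR signalling, Eif4ebp1, the repressor of cap-dependent translation, was called higher (0.69, adjusted p = 0.00894) and the median was 0.05 in the authors' deposited table. Of 9 dedicated chaperones of ribosomal proteins, Grwd1, which escorts Rpl3, was called higher (0.79, adjusted p = 0.00886) and the median was 0.21 in the authors' deposited table. After removal of the trend Rpsa, Eif3k and Grwd1 were no longer called, with residuals of 0.18, 0.25 and 0.54 (adjusted p = 0.571, 0.293 and 0.229), and Eif4ebp1 was, with 0.67 (adjusted p = 0.0304). Mitochondrial ribosomal protein genes, which serve the separate ribosome of that organelle, had 2 of 78 called higher and 0 lower, or 2.56% against 4.15% of all genes, with a median of 0.22 in the authors' deposited table. Both counts were the same after removal of the trend, with 0.969% of all genes then called higher and a median of 0.093, against 0.075 for the members.

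Macrophage markers were present in both groups: 10 of 10 marker genes were listed at means from 375 normalized counts up, their sum was 60234 in room air and 64106 after smoke, and 0 were called in the authors' deposited table. Neutrophil markers summed to 0.322 and 0.508 and erythroid markers were not listed in the authors' deposited table. Of 8 B cell markers 5 were listed, summing to 146 and 123, nearly all from Ighm. The sums differed for stromal markers, from 45.6 to 8.10 (6 of 6 listed), and for dendritic markers, from 32.9 to 109 (4 of 6 listed), with 0 called in either list of the authors' deposited table. Itgax alone made nearly all of the dendritic sum, at 31.7 and 108 in the authors' deposited table. The other 3 listed were near 0: Zbtb46 at 0.322 and 1.02, Siglech at 0.767 and 0, and Xcr1 at 0.20 and 0 in the authors' deposited table. Cell cycle genes, which often track ribosome production, summed to 11513 and 9863 with 0 of 12 called in the authors' deposited table. The lower sum came from Mki67, at 4719 and 3178, and Top2a, at 2347 and 1866, while 7 of the 12 had a log2 fold change above 0 and the median was 0.09 in the authors' deposited table. Their part in the result was not tested.

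Splicing of members was measured per library, and no event passed the test. JuncBASE, a program that classifies alternative splicing from junction reads, placed 30 of 10376 tested events in 10 members. By limma on log2 odds of inclusion, 0 of the 30 were called and 0 had an unadjusted p under 0.05; the shares over all events were 0% and 10.8%. By the authors' own test in their deposited table, 0 of the 30 had an unadjusted p under 0.05, against 4.15% of all events, and 0 a corrected one. Groups did not overlap in 2 of the 30 events, or 6.67%, and in 22.8% of all events. All 6 libraries had a value in 28 of the 30 events and in 5933 of all 10376. Groups with fewer values fail to overlap more easily, so those shares are not on equal terms.

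By limma, the lowest unadjusted p among the 30 was that of a retained intron of Rpl22l1 at chr3:28806593-28806736 (the authors' coordinates, mm10). Its inclusion was 10%, 4.55% and 4.71% in the room air libraries and 0%, 0% and 7.06% after smoke (6.42% ± 3.10 and 2.35% ± 4.08, SD, n = 3 each). The smoke library at 7.06% was above 2 of the 3 room air libraries, and the difference of -4.07 points was not past the threshold (limma adjusted p = 0.504). That library was cigarette smoke replicate 3, and without it limma called 3 of the 30 events, at adjusted p of 0.0256 to 0.0336, and 10.4% of all events. The 3 were this intron, an acceptor of the same Rpl22l1 intron and a retained intron of Rpl10a, for which a lone smoke library was left and was assumed to vary like the others. In Rpl34, a donor choice was used at 6.84%, 7.48% and 5.11% in room air and 16.4%, 9.23% and 9.89% after smoke (6.48% ± 1.23 and 11.8% ± 3.94, SD, n = 3 each). Every smoke library lay above every room air library, with a limma adjusted p of 0.526. The other event without overlap was the main donor of the same Rpl34 intron, at 89.7% ± 2.08 in room air and 85.1% ± 3.01 after smoke (SD, n = 3 each), and the pair share their junction reads. In Rpl41, an acceptor that is one of 3 choices had 6.67%, 6.67% and 10.8% in room air and 16.7%, 14.8% and 10.7% after smoke, and the groups overlapped by 1 library (limma adjusted p = 0.525); it had the lowest unadjusted p of the authors' own test among these events. Rps19, whose loss causes the most common form of Diamond-Blackfan anaemia, used its main donor at 94.5% ± 1.81 in room air and 97.8% ± 2.87 after smoke (SD, n = 3 each; limma adjusted p = 0.524).

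Intron retention in members had no settled direction. Mean inclusion over 6 introns with a value in each library was 23.5%, 23.4% and 22.4% in room air and 20.8%, 25.6% and 23.8% after smoke (23.1% ± 0.589 and 23.4% ± 2.42, SD, n = 3 each), a difference of 0.31 points that is smaller than the spread between smoke libraries. As a median over the 6 introns the difference was -2.24 points, and over the 2 introns whose mean inclusion reached 10% it was 5.10 points, with 57.7% ± 1.31 in room air and 62.8% ± 3.62 after smoke (SD, n = 3 each). In that last summary every smoke library, from 59.4% to 66.6%, lay above every room air library, from 56.2% to 58.7%. Over all 1992 such introns it was 15.7% ± 0.978 and 11.4% ± 1.28 (SD, n = 3 each), a difference of -4.23 points, and the same 3 summaries were all below 0, at -4.88 as a median and -5.43 over the 496 introns that reached 10%. Whether the members differ from the other introns was not tested, and 6 introns are few. Among 8 retained introns of members, counting 2 with a missing library, 0 had groups that did not overlap, against 35.2% of all retained introns. Of those 3305 introns, 1992 had a value in each library. Groups with missing values fail to overlap more easily, so the shares are not on equal terms. The most retained was an intron of Rpl13a, a protein that can be released from the ribosome to silence inflammatory messages, at 95.02% ± 3.12 in room air and 98.3% ± 1.51 after smoke (SD, n = 3 each). An intron of Rpl10a had 70%, 65.4% and 73.9% in room air and 100% and 63.3% in the smoke libraries with a value.

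**Figure D5:**
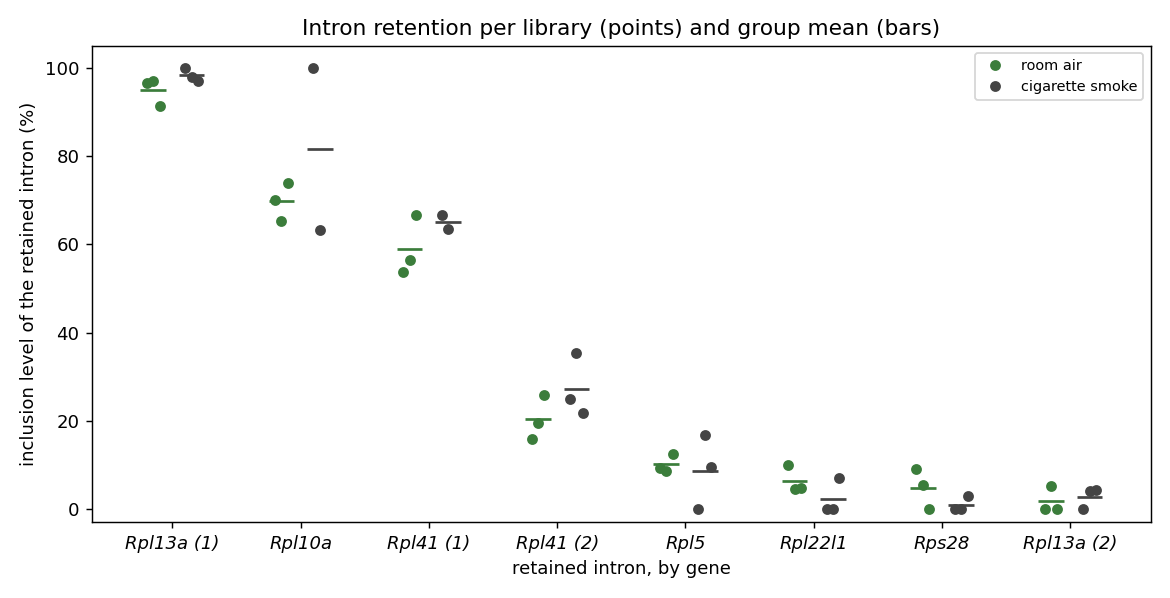
Inclusion level in percent of the 8 retained introns of members, sorted by mean level, with a point per library (green for room air, dark grey for cigarette smoke) and short bars for group means; numbers in brackets tell introns of a gene apart. The groups overlap in all 8, and Rpl10a and the first Rpl41 intron have 2 smoke libraries with a value.

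rMATS, a second splicing program that adds reads from the intron body, covered 70 introns in 41 members. The authors' deposited table had 5 of the 70, or 7.14%, at a false discovery rate under 0.05, against 14.5% of 3887 introns. They lay in Rpl6, Rpl9, Rpl3, Rpl10 and Rps2, each higher in sample set 1, and by the authors' deposited table the differences were 3.4, 1.3, 1.5, 0.8 and 0.7 percentage points. Which group each set holds is not stated, so no direction between smoke and room air can be given. At a rate under 0.01 there were 2, against 7.77% of all introns. None of the 5 reached a difference of 10 points, as 4.43% of all introns did at that rate. Rps2 is the one of these genes that was also called in expression.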

How the data were processed

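RNA of 6 macrophage cultures was measured, 3 per group. Per the submitters' processing notes, the authors used STAR, DESeq2, SAMtools 1.9, bedtools 2.27.1 and the mm10 build, with no role or order given. The authors deposited group means of size-factor-normalized counts (signal), a log2 fold change with its SE, a Wald score, p-values and adjusted p-values. A header names a mean over 24 libraries, 18 of them not analysed here. The fit may have covered all 24, in which case the spread of the other libraries enters each SE. The authors also deposited percent inclusion per event and library (JuncBASE) and retained introns with p-values (rMATS).

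The design allowed for counts per library, and since the table holds group means, the authors' comparison was described at an adjusted p under 0.05. GENCODE M21 gave a transcript with a length and GC content for 99.9% of genes and 100% of members. Principal and CCDS-supported transcripts were preferred where a gene had them. Trends in GC content and log length were fitted by weighted splines with 4 degrees of freedom (statsmodels 0.14.6), and p-values were recomputed from residuals and deposited SEs. Events were tested with limma 3.58.1 in R 4.3.3 on log2((p + 1)/(100 - p + 1)), pseudocount 1 percentage point, with Benjamini-Hochberg adjustment. Both procedures were tested on simulated data. The limma p-values measure the spread between these libraries, which may be technical. Those of the authors' expression comparison and of the residuals use the deposited SEs, which may also hold the spread of other libraries.

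Members and lists were chosen with earlier results of these data known. Genes named were the 6 lowest adjusted p in each subunit, the 3 highest and 3 lowest fold changes and 3 highest levels per length, the P stalk, 5S and paralog lists, other list members past the threshold, and genes with the 5 events of lowest p or an rMATS call. Those named outside this rule (Rpl10a and its intron, Rps9, Rps14, Rps28, Rps23, Rps3a3, Rps12l1, Rps2-ps10, Rpl27a and single marker genes) were chosen after their values were seen. Values of 2 members are not reported here one by one and are left out of the plot of single genes; they stay in all counts and medians.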

Additional observations from a re-analysis of the deposited data

How the results depend on the processing

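The median log2 fold change of 0.26 and the share of counts kept their direction under each alternative run on them, while the difference between the subunits' medians, -0.0065, lay between -0.041 and 0.036 and changed sign. Calls numbered 9 at an adjusted p under 0.01, and 13 to 17 under the other thresholds, filters and centring. After removal of the trend in length and GC content there was 1 call with a median of 0.075, with length alone 1 and 0.066, and with the longest transcript, an alternative chosen after seeing the data, 2 and 0.082. That last setting put Rpl29 at -0.021. Splicing calls in members ranged from 0 to 3 when each library was left out, and were 0 under the other pseudocounts and with complete events. The difference in intron retention ranged from -0.80 to 1.60 points without each library, was 5.10 over the 2 introns of at least 10% and -2.24 as a median over introns, so its sign is not settled. The rMATS count of 5 became 2 at a rate under 0.01 and 0 at a difference of at least 10 points. Deviations from the group means of libraries with the same replicate number had correlations of 0.02, -0.04 and -0.09 over 5933 events, so the numbers were not taken as pairs; with a replicate block, 0 of 30 member events were called, with a lowest p of 0.0864. Group means without library values and unknown depth limit precision for genes of low count.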
